A study of Mus musculus with 6 samples.

Results

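The 10 genes described here encode elastin and proteins of the microfibrils around it. They are *Eln*, *Fbn1*, *Fbln1*, *Fbln2*, *Fbln5*, *Efemp2*, *Emilin1*, *Emilin2*, *Mfap4* and *Mfap5*, and each was taken by its symbol from the deposited table of normalized counts, which lists 16247 genes, and joined by Ensembl identifier to the deposited table of raw counts, which lists 51912. RNA was sequenced from the soleus, a slow-twitch calf muscle, of 3 mice heterozygous for the Mustn1 KO-first allele (HET) and 3 wild-type (WT) littermates. All 6 mice were on the C57BL6/N background and 8 weeks old, and no treatment is given in the labels. The allele is a gene trap: a cassette with lacZ and a neomycin selection marker captures the transcript after its first exon, in place of the rest of *Mustn1*. It is present in the whole body, and HET mice keep a normal copy of *Mustn1*. Which mice shared a litter is not given.

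An elastic fiber has a core of elastin, cross-linked by lysyl oxidases, that lies within a mantle of fibrillin microfibrils. Fibulins, EMILINs and microfibril-associated proteins sit on the microfibrils or at the border with elastin, and several of them are needed to bring elastin to the microfibril and to its cross-linking enzyme. In skeletal muscle such fibers are found in the walls of arteries, in the connective tissue sheaths of the muscle and towards the tendon. They give tissue elastic recoil, and their microfibrils bind latent forms of TGF-beta.

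The libraries held between 26790075 and 50368796 reads on genes, with a median of 33638216. The labels call the 6 mice male. *Xist* nevertheless had from 3858 to 9154 reads per library, and 4 Y-linked genes together had from 0 to 12, which goes against that label in both genotypes. *Mustn1* stood at 14.2 ± 2.33 CPM (CPM is the count scaled to library size, SD, n = 3) in HET and 27.5 ± 3.89 in WT mice, and it fell by 0.96 on the log2 scale (SE 0.15, edgeR adjusted p = 0.0452). This call was kept when HET 2 or WT 3 was left out and lost when any other mouse was. The 15 endothelial and 10 slow fiber markers examined had median log2 fold changes of −0.06 and −0.08, and none of either list passed the test.

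All 10 elastic fiber genes passed the filter on low counts and were tested among 14696 genes. None passed an adjusted p of 0.05 in edgeR's quasi-likelihood test, where 0.143% of all genes tested passed as higher in HET. By the unadjusted p of the same test, 8 of the 10 were higher in HET below 0.05, where 5.76% of all genes tested were. DESeq2's Wald test placed 5 of them higher in HET past an adjusted p of 0.05, beside 1.12% of the genes it adjusted, and limma-voom placed 0. Their log2 fold changes lay between 0.22 and 1.33 with a median of 0.67, beside a median of −0.02 over all genes tested. All 10 were above 0, as were 45.6% of all genes tested.

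For 7 of the 10 genes, every HET mouse stood above every WT mouse on CPM scaled by edgeR's TMM factors, as in 7.55% of all genes tested. The count was also 7 with RLE factors and in the deposited normalized counts, and 9 with upper-quartile factors or with library size alone. With TMM factors the genes whose genotypes overlapped were *Fbln2*, *Fbln5* and *Emilin1*.

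**Figure D1:**
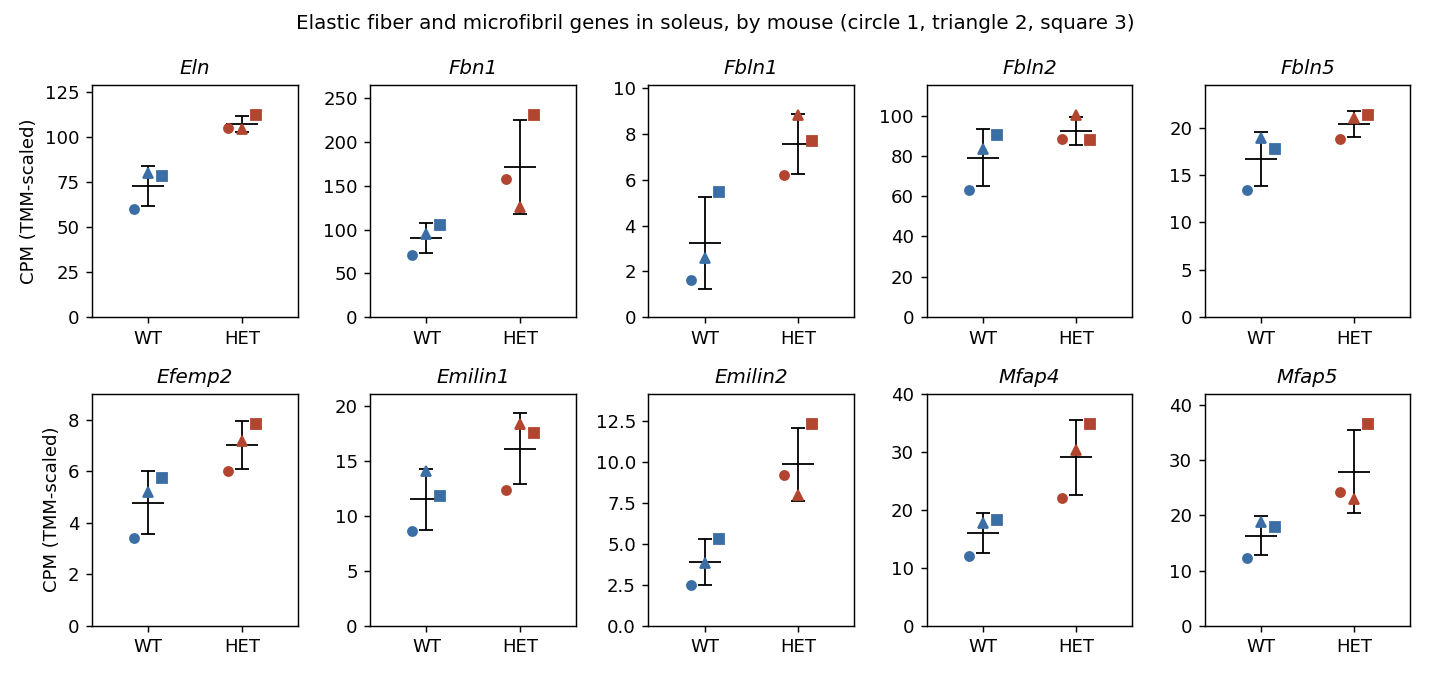
CPM of each of the 10 genes (vertical axes from 0, each gene on its own scale) in the 3 WT and 3 HET mice, with the mean and SD as bars. The circle of WT 1 is the lowest point of all 6 in every panel, and the genotypes overlap in *Fbln2*, *Fbln5* and *Emilin1*.

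*Eln* encodes tropoelastin, the soluble monomer of the elastic core. It lies on the minus strand of chromosome 5, between 134702593 and 134747323 in GRCm38. It stood at 105, 105 and 112 CPM in HET mice 1 to 3 and at 59.7, 80.0 and 78.3 CPM in WT mice 1 to 3. The HET mice lay close together, with a coefficient of variation of 4.01% beside 15.5% in WT, and the lowest of them was above the highest WT mouse. The log2 fold change was 0.56 with a 95% interval from 0.31 to 0.81, and the adjusted p was 0.108 with edgeR and 0.00262 with DESeq2. Among the 10 genes this was the interval with the smallest SE, 0.11. Exons of *Gm30003* lie opposite those of *Eln*, and the counting used strand.

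*Fbn1* encodes fibrillin-1, the backbone of the microfibril, and it had the most reads of the 10 genes in every library. It lies on the minus strand of chromosome 2, between 125300594 and 125507993. Its CPM was 158, 125 and 231 in HET mice 1 to 3 and 71.1, 94.7 and 105 in WT mice 1 to 3. The genotypes did not overlap, but HET 3 stood far above the other HET mice. The log2 fold change was 0.93 (95% interval 0.36 to 1.49), which is a fold of 1.90, with an adjusted p of 0.280 from edgeR and 0.166 from DESeq2. Without HET 3 the log2 fold change was 0.65, its lowest value over the alternatives, with every alternative above 0. Exons of *Gm9913* lie opposite those of *Fbn1*, and the counting used strand.

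The fibulins tie elastin to microfibrils and basement membranes, and the 4 measured here differed in how far the genotypes stood apart. *Fbln1*, on the plus strand of chromosome 15 between 85205949 and 85286535, encodes fibulin-1, which binds elastin and basement membrane proteins. It stood at 6.20, 8.83 and 7.70 CPM in HET mice and at 1.61, 2.59 and 5.47 CPM in WT mice 1 to 3. The genotypes did not overlap, yet the WT mice varied among themselves more than for any other of the 10 genes, with a coefficient of variation of 62.3%. WT 1 held 48 reads on *Fbln1* and WT 3 held 270. The log2 fold change was 1.19 with an interval from 0.28 to 2.10, and the adjusted p was 0.431 with edgeR and 0.0173 with DESeq2. Without WT 3 the log2 fold change was 1.85 and passed the threshold, and without WT 1 it was 0.88.

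*Efemp2* encodes fibulin-4, which brings lysyl oxidase to tropoelastin. It lies on the plus strand of chromosome 19, between 5473973 and 5481853. Its CPM was 6.01, 7.19 and 7.84 in HET mice and 3.41, 5.21 and 5.73 in WT mice 1 to 3, so that the lowest HET mouse was just above the highest WT mouse. The log2 fold change was 0.54 (95% interval 0.10 to 0.99, adjusted p = 0.477 with edgeR). *Fbln5* encodes fibulin-5, which binds tropoelastin and cell surface integrins, and it lies on the minus strand of chromosome 12, between 101746565 and 101819055. It stood at 18.9, 21.1 and 21.4 CPM in HET mice and at 13.4, 18.9 and 17.7 CPM in WT mice 1 to 3. HET 1 and WT 2 met at the same level, and the log2 fold change of 0.29 had an interval from −0.01 to 0.59 (edgeR adjusted p = 0.663).

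*Fbln2* encodes fibulin-2, found in vessel walls and basement membranes, and it lies on the plus strand of chromosome 6, between 91212455 and 91272540. It stood at 88.5, 100.3 and 88.0 CPM in HET mice and at 63.3, 83.7 and 90.4 CPM in WT mice 1 to 3. WT 3 was above a pair of HET mice. With a log2 fold change of 0.22 (95% interval −0.06 to 0.50, edgeR adjusted p = 0.796), it had the smallest difference of the 10 genes. Its interval leaves out a fold in HET above 1.42.

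The EMILINs are glycoproteins at the border of elastin and microfibril, and the intervals of the fold changes of this pair overlapped. *Emilin1*, on the plus strand of chromosome 5 between 30913402 and 30921277, encodes a protein that also restrains the maturation of TGF-beta. It stood at 12.4, 18.4 and 17.6 CPM in HET mice and at 8.60, 14.1 and 11.9 CPM in WT mice 1 to 3. WT 2 was above HET 1, so the genotypes overlapped, and the log2 fold change was 0.48 (95% interval 0.04 to 0.93, edgeR adjusted p = 0.585). *Emilin2* lies on the minus strand of chromosome 17, between 71252176 and 71310965, and encodes a secreted member of the same family. Its CPM was 9.22, 7.97 and 12.3 in HET mice and 2.51, 3.83 and 5.31 in WT mice 1 to 3. Every HET mouse was well above the highest WT mouse, and the estimated fold of 2.51 (95% interval 1.67 to 3.76) was the largest of the 10. The adjusted p for *Emilin2* was 0.108 with edgeR and 6.9e-05 with DESeq2.

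*Mfap4* and *Mfap5* encode microfibril-associated proteins that are not related to each other in sequence. *Mfap4*, on the plus strand of chromosome 11 between 61485431 and 61488900, encodes a fibrinogen-related protein that binds tropoelastin and fibrillin-1. It stood at 22.1, 30.4 and 34.9 CPM in HET mice and at 11.97, 17.7 and 18.2 CPM in WT mice 1 to 3, without overlap. The log2 fold change was 0.87 (95% interval 0.42 to 1.31), with an adjusted p of 0.174 from edgeR and 0.00121 from DESeq2. Exons of *Mapk7* lie opposite those of *Mfap4*, and the counting used strand. *Mfap5*, on the plus strand of chromosome 6 between 122505845 and 122529290, encodes MAGP-2, which binds fibrillins and active TGF-beta. It stood at 24.3, 22.9 and 36.6 CPM in HET mice and at 12.3, 18.8 and 17.97 CPM in WT mice 1 to 3. The genotypes did not overlap, HET 3 again stood highest, and the log2 fold change was 0.77 (95% interval 0.29 to 1.26) with an adjusted p of 0.277 from edgeR and 0.0108 from DESeq2.

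**Figure D2:**
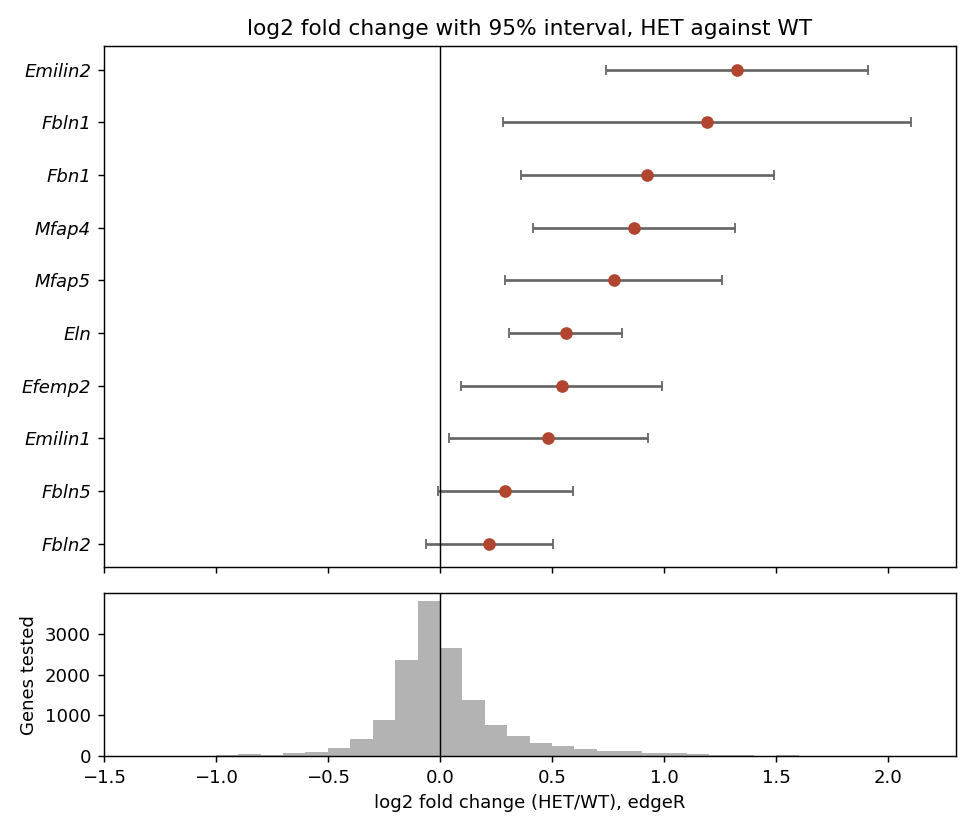
The upper panel shows the log2 fold change of HET against WT with its 95% interval for the 10 genes, and the lower panel shows the number of genes tested per bin of 0.1 in log2 fold change. The intervals of *Fbln2* and *Fbln5* include 0, and the median of all genes is −0.02.

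Compared per length, as RPKM (CPM divided by the exon length in kilobases), the 10 genes covered a range of 16.8-fold in WT mice. This length joins the exons of a gene's annotated transcripts, so the order of the genes depends on the annotation. *Fbln2* was the highest with 12.4 ± 2.22 RPKM (SD, n = 3), and *Eln*, *Mfap4* and *Fbn1* followed with 8.97 ± 1.39, 8.30 ± 1.79 and 7.45 ± 1.44 RPKM. The lowest WT mouse for *Fbln2*, at 9.93 RPKM, was above the highest WT mouse for *Eln*, at 9.88 RPKM, so these neighbours barely separated, and *Eln*, *Mfap4* and *Fbn1* overlapped from each to the next. *Mfap5* came next with 4.56 ± 0.99 RPKM and overlapped neither neighbour. From *Fbln5* at 2.42 ± 0.42 RPKM through *Emilin1* at 2.34 ± 0.56, *Efemp2* at 1.81 ± 0.46 and *Emilin2* at 0.993 ± 0.36 down to *Fbln1* at 0.738 ± 0.46, every neighbour overlapped the next. Of the 10 genes, 5 stood above the median WT level of all genes tested, 2.68 RPKM.

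In HET mice *Mfap4* had the highest mean, 15.1 ± 3.38 RPKM, followed by *Fbln2* with 14.5 ± 1.09, *Fbn1* with 14.1 ± 4.45 and *Eln* with 13.2 ± 0.53 RPKM. The range of *Fbn1* in HET mice, from 10.3 to 19.0 RPKM, took in the ranges of *Mfap4*, *Fbln2* and *Eln*, and the ranges of *Fbln2* and *Eln* touched, so no order among these 4 genes held beyond the spread. *Fbln1* and *Emilin2* stayed the lowest in both genotypes, at 1.73 ± 0.30 and 2.51 ± 0.57 RPKM in HET mice.

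**Figure D3:**
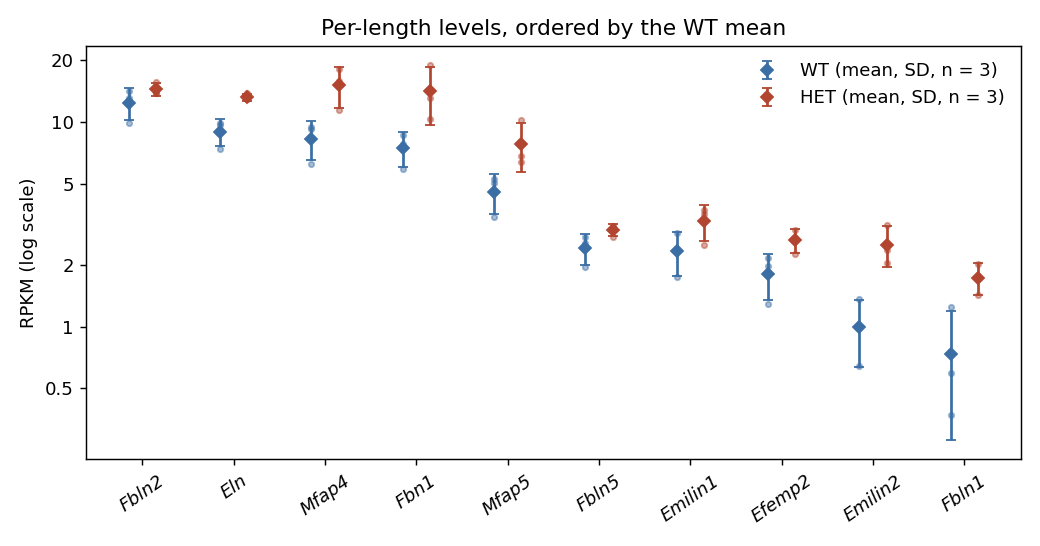
RPKM on a log scale for the 10 genes, ordered by the WT mean, with single mice as small points and the mean and SD as diamonds and bars. *Fbln2* leads in WT at 12.4 RPKM, while 4 genes share the top between 13.2 and 15.1 RPKM in HET.

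Ratios of RPKM within a mouse describe the makeup of the group, and of the 7 computed most overlapped between the genotypes. *Fbln1* per *Fbln2* was 0.102, 0.128 and 0.128 in HET and 0.0370, 0.0451 and 0.0883 in WT mice 1 to 3, without overlap. *Fbln5* per *Eln* was lower in every HET mouse, at 0.211, 0.236 and 0.223 beside 0.264, 0.277 and 0.265 in WT mice 1 to 3. *Efemp2* per *Eln* was nearly equal, at 0.1998 ± 0.0213 in HET and 0.1993 ± 0.0247 in WT (SD, n = 3). *Emilin2* per *Emilin1* was 0.937, 0.547 and 0.884 in HET and 0.368, 0.343 and 0.565 in WT mice 1 to 3, where HET 2 fell just below WT 3. *Mfap5* per *Mfap4*, *Fbn1* per *Eln* and *Mfap5* per *Eln* overlapped between the genotypes as well. These ratios are descriptions without a test.

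The windows before the RefSeq starts of these genes are shown for those in which no annotated exon lies, and they hold the genes with the 2 largest estimated folds, *Emilin2* and *Fbln1*, beside *Efemp2* and *Fbln5*, whose folds were smaller. The RefSeq table of promoters in GRCm38.p6 held 12 windows for 7 of the 10 genes, and 4 of these windows met that condition. Each line gives 250 bases up to the start, 5′ to 3′ on the strand of the gene, with capitals for the GC box (GGGCGG or its reverse complement).
*Fbln1*, chr15:85205699-85205948, plus strand: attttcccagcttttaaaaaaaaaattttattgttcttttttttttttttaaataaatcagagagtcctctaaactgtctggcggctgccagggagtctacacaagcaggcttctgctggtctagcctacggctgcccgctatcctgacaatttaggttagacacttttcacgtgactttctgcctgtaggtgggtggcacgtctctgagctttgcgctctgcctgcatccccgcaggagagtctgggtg
*Fbln5*, chr12:101819120-101819369, minus strand: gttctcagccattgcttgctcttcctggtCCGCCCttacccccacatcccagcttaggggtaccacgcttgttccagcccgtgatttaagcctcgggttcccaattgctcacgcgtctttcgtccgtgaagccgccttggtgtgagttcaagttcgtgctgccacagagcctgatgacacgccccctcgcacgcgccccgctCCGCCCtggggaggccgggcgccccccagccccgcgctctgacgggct
*Efemp2*, chr19:5473696-5473945, plus strand: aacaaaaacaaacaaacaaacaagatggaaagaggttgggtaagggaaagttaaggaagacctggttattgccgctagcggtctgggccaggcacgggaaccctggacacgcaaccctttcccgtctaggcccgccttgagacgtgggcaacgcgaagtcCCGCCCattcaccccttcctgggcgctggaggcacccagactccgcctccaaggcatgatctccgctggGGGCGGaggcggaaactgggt
*Emilin2*, chr17:71311012-71311261, minus strand: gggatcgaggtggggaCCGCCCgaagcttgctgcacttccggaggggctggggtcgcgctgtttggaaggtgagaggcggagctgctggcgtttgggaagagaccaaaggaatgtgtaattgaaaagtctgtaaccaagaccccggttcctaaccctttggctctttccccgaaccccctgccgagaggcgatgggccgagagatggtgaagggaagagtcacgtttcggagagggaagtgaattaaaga
A GC box was present in the windows of *Fbln5*, *Efemp2* and *Emilin2* and not in that of *Fbln1*. Over all 12 windows of the 7 genes, 8 held a GC box, beside 32.7% of all 32851 windows of the same length in the table, and windows of the same gene can overlap. The AP-1 motif (TGANTCA), the TATA box (TATAAA) and the CArG box were searched on both strands as well. None of the 12 windows held any of these 3 motifs, which were present in 6.75%, 12.4% and 1.47% of all windows. *Eln*, *Mfap4* and *Mfap5* have no window in the table.

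Single mice differed in the same direction over most of the 10 genes. WT 1 was the lowest of all 6 mice for 10 of the 10 genes. HET 3 was the highest of all 6 for 7 of them, and HET 2 was the highest for the other 3. The summed CPM of the 10 genes was 451, 447 and 569 in HET mice and 248, 339.6 and 356 in WT mice 1 to 3. *Eln*, *Fbn1* and *Fbln2* made up between 73.9% and 78.3% of this sum in every mouse. Without WT 1 all 10 log2 fold changes remained above 0, with a median of 0.52, and 6 of them had an unadjusted p below 0.05. Since WT 1 was the lowest mouse for each gene, leaving it out lowers the log2 fold changes by construction. That of *Fbln1* went from 1.19 to 0.88 and that of *Fbln2* from 0.22 to 0.08.

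After the genotype means were taken off, the 10 genes still varied together from mouse to mouse. Over 6 mice, the Pearson correlation of these deviations in log2 CPM had a median of 0.78 over the 45 pairs of genes, from 0.26 for *Fbn1* and *Fbln2* to 0.95 for *Eln* and *Fbln5*. No such median over other genes is given beside it. WT 1, the lowest mouse for each of the 10 genes, had the largest median deviation of the 6 mice, −0.39. The values of a mouse share its library and its dissection, and with 3 mice per genotype the correlations are a description. *Fbn1* followed the others least, with a median of 0.63, and *Efemp2* and *Fbln5* most, each with a median of 0.86.

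The 5 other genes whose log2 CPM was most like the mean of the 10 were *P4ha3*, *Mmp19*, *Bmp1*, *Ssc5d* and *Olfml3*, with Pearson correlations between 0.994 and 0.998 over the 6 mice, genotype difference included. *P4ha3* encodes a subunit of collagen prolyl hydroxylase, *Mmp19* a matrix metalloproteinase and *Bmp1* the protease that removes the carboxyl propeptide of collagens. *P4ha3* was low, at 0.630 CPM in HET and 0.261 CPM in WT mice on average, and *Bmp1* stood at 26.4 and 18.3 CPM. None of the 5 passed the edgeR threshold, with adjusted p-values from 0.174 to 0.442.

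Other genes of the elastic fiber pathway were taken from a list of 46, of which 43 were tested. Past the threshold, 2 rose and 0 fell, where 0.143% of all genes tested rose. *Mmrn1* encodes multimerin-1, an EMILIN family member of platelets and endothelium. Its CPM was 4.38, 5.03 and 3.28 in HET and 0.602, 0.958 and 1.499 in WT mice 1 to 3, a log2 fold change of 1.998 (SE 0.31, edgeR adjusted p = 0.0473). *Ctss* encodes cathepsin S, an elastin-degrading protease of macrophages, and it stood at 5.64, 5.03 and 7.06 CPM in HET and 2.31, 1.77 and 2.19 CPM in WT mice 1 to 3. Its log2 fold change was 1.499 (SE 0.20, edgeR adjusted p = 0.0322). With each mouse left out in turn, *Mmrn1* kept its call only without WT 3, and *Ctss* only without HET 2 or WT 3. By unadjusted p, 17 of the 43 were higher below 0.05, beside 5.76% of all genes tested, and 0 were lower. The median log2 fold change of the 43 was 0.26.

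The groups of the pathway differed in their medians. All 5 lysyl oxidases, the enzymes that cross-link elastin and collagen, had log2 fold changes above 0, from 0.58 for *Loxl1* to 1.13 for *Loxl4*, with a median of 0.80, and none passed the threshold. The other fibrillin, fibulin, EMILIN and MAGP genes had a median of 0.86 and reached from −0.35 for *Emid1* to the value of *Mmrn1*. Among the elastin-degrading proteases, 4 of the 5 tested were above 0, with *Ctsl* at −0.05 and *Ctss* highest. The latent TGF-beta binding proteins, which dock TGF-beta on microfibrils, had a median of 0.27, from 0.08 for *Ltbp1* to 1.02 for *Ltbp2*.

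The remaining groups lay near 0. The ADAMTS and ADAMTS-like proteins that bind fibrillin had a median log2 fold change of 0.05, from −0.07 for *Adamts6* to 0.69 for *Adamtsl3*. The elastin receptor complex had a median of 0.05, from −0.07 for *Neu1* to 0.08 for *Ctsa*. The chains of integrins that bind the RGD motif, a cell attachment site of fibrillin-1 and fibulin-5, had a median of 0.14, from −0.07 for *Itgb6* to 0.91 for *Itgb3*. None of these genes passed the threshold, and the groups were not tested against each other.

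**Figure D4:**
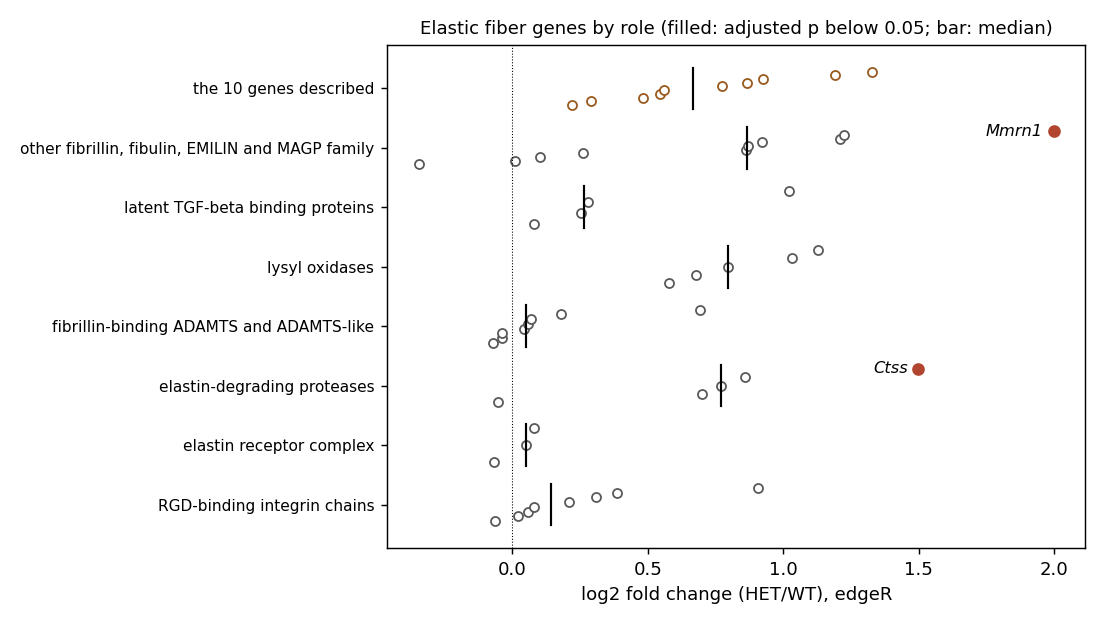
Log2 fold change of HET against WT for the 10 genes and the 43 tested genes of 7 pathway groups, with the median of each group as a bar and filled points for an adjusted p below 0.05. *Mmrn1* at 1.998 and *Ctss* at 1.499 are the filled points, and the ADAMTS and receptor groups lie around 0.05.

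The level of several cell type marker lists also differed between the mice. All 15 markers of fibroblasts and fibro-adipogenic progenitors had log2 fold changes above 0, with a median of 0.60, and 1 of them, *Pi16*, passed the threshold. Their summed CPM lay between 2817 and 3940.0 in HET and between 1369 and 2190.3 in WT mice. Of the 10 tenocyte markers, 9 were above 0 with a median of 1.09, none passed, and their summed CPM was 393 to 725 in HET and 131 to 319 in WT mice. WT 1 was the lowest mouse in both sums, as it was for each of the 10 genes. Of the 15 macrophage markers, 13 were above 0 with a median of 1.39 and 5 passed the threshold. Their summed CPM was 146 to 171 in HET and 96.3 to 107 in WT mice. Most of the mean sum in WT mice came from *Maf* and *Mrc1*, at log2 fold changes of −0.14 and 0.33. Of all genes tested, 0.143% passed as higher in HET. Of the 8 adipocyte markers, 6 were above 0, the median of the list was 0.95 and none passed. Their summed CPM was lower in HET, at 3844.5 to 4042 beside 4385 to 5769 in WT mice. Most of this sum came from *Car3*, whose log2 fold change was −0.38, so the sum does not follow the 6 markers above 0. The 9 perineurium and Schwann markers tested had a median of 0.03 and the 10 general skeletal fiber markers one of −0.02, and none of either list passed. The general fiber list reached from −0.85 for *Pvalb* to 0.14. No tested marker of these lists was at 0 reads in every library. The part of these cells in the values of the 10 genes was not tested. In bulk muscle, more cells of a type and more RNA per cell cannot be told apart.

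The 11 vascular smooth muscle markers, from the cells that make much of the elastin of arteries, had a median log2 fold change of 0.01, and none had an unadjusted p below 0.05. Their summed CPM was 5297 to 6253 in HET and 5509.7 to 5828 in WT mice, and *Des* and *Synpo2*, which skeletal fibers also express, made up most of it. Per 100 CPM of fibroblast markers, the 10 genes held 16.0, 12.5 and 14.4 CPM in HET mice 1 to 3. In WT mice 1 to 3 they held 18.1, 17.0 and 16.3 CPM, so on this scale the HET mice were all below the WT mice. Most of the fibroblast sum came from *Col1a1*, *Col1a2*, *Col3a1* and *Gsn*. The log2 fold changes of these markers were 0.83 to 1.23, beside a median of 0.60 for the list. Per 100 CPM of endothelial markers the 10 genes held 40.2, 32.3 and 45.6 CPM in HET mice 1 to 3. In WT mice 1 to 3 they held 21.4, 22.7 and 26.9 CPM, and every HET mouse was above. Per 100 CPM of vascular smooth muscle markers the 10 genes held 8.36, 7.15 and 10.7 CPM in HET mice 1 to 3. In WT mice 1 to 3 they held 4.49, 6.16 and 6.11 CPM, again with every HET mouse above. For tenocyte markers these values were 115, 61.6 and 89.5 CPM in HET and 190, 117 and 112 CPM in WT mice 1 to 3. For macrophage markers they were 291, 305 and 332 CPM in HET and 245, 353 and 333 CPM in WT mice 1 to 3. On both scales the genotypes overlapped. The mean macrophage sum in WT mice came mostly from *Maf* and *Mrc1*, whose log2 fold changes lay well below the list's median of 1.39.

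**Figure D5:**
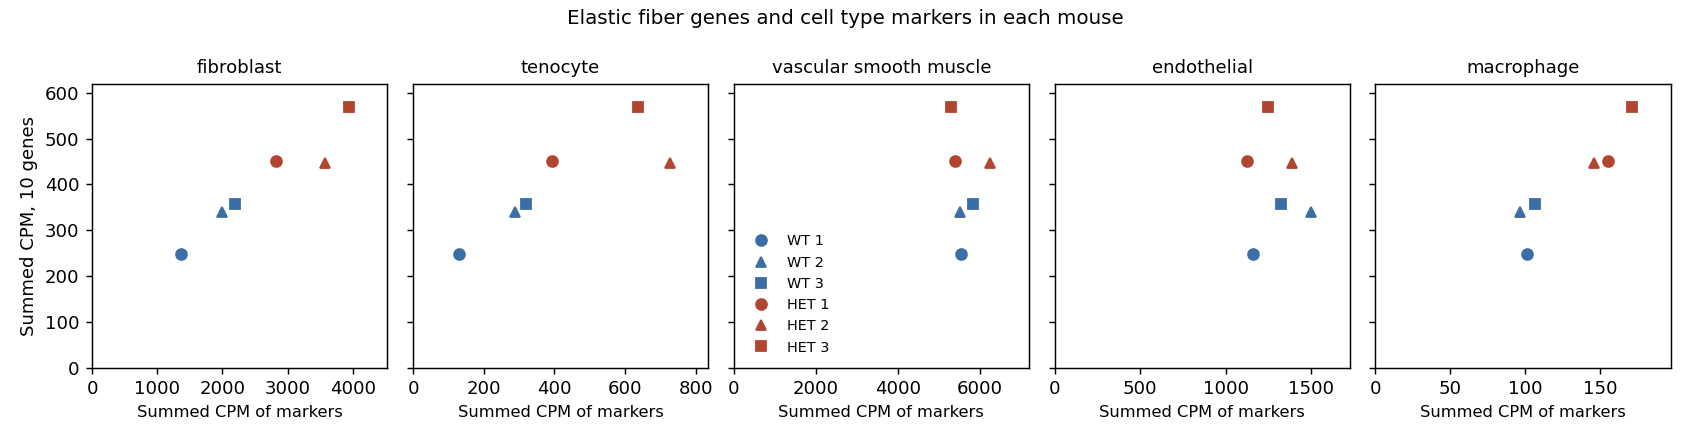
Summed CPM of the 10 genes (vertical axis) against the summed CPM of the markers of 5 cell types (horizontal axes), each point a mouse, WT in blue and HET in red. The genotypes separate on the fibroblast, tenocyte and macrophage axes and overlap on the vascular smooth muscle and endothelial axes.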

How the data were processed

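RNA-seq data of soleus from 3 HET and 3 WT mice were used, with 1 library of poly-A enriched, stranded, single 50 bp reads per mouse. Per the submitters' processing notes, the authors aligned reads with STAR 2.7.3a to GRCm38.p6 and deposited raw counts per gene from featureCounts 2.0.3, run in reverse-stranded mode. In the deposited normalized signal, each library's counts were scaled by 1 size factor from DESeq2 (0.773 to 1.42). A deposited DESeq2 comparison with the authors' fold changes and p-values was not used.

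Raw counts were analysed in R 4.3.3 with edgeR 4.0.16 (filterByExpr, minimum count 10, TMM, robust quasi-likelihood test by genotype alone, all 6 mice, two-sided, Benjamini-Hochberg over 14696 genes, threshold 0.05 on the adjusted p). The steps were tested on simulated data. The biological coefficient of variation was 0.143. Intervals are 95% intervals of the log2 fold change. The p-values weigh the difference between genotypes against the spread between mice of a genotype, with the mice taken as independent. Log2 CPM used a prior count of 2, and RPKM used the exon length in the count table. Alternatives used DESeq2 1.42.0, limma 3.58.1 and other scalings and filters. Tables and plots were made with Python 3.11.15, pandas 2.3.3, NumPy 2.4.6 and matplotlib 3.10.9. GENCODE M21, of the same build, named 51633 of 51912 genes, and promoter sequences came from RefSeq. Protein sequences were not used here.

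Named were the 10 genes, *Mustn1*, *Xist* and 4 Y-linked genes as a group, pathway genes past the threshold and at the ends of each group, and the 5 genes most like the mean of the 10. Cell type markers are given as lists. *Pi16*, *Car3*, *Des*, *Synpo2*, *Col1a1*, *Col1a2*, *Col3a1*, *Gsn*, *Maf*, *Mrc1* and *Pvalb* were named after their values were seen. The genes and lists were chosen with earlier results of these data known.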

Additional observations from a re-analysis of the deposited data

How the results depend on the processing

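The log2 fold changes of the 10 genes stayed above 0 in all 17 alternatives. The number past the threshold was 0 in edgeR's main test and in 12 alternatives. It was 6 without a filter on low counts (*Eln*, *Fbln1*, *Emilin1*, *Emilin2*, *Mfap4* and *Mfap5*), 5 with DESeq2, 3 with the replicate block, 3 with the length trend removed as well, and 0 to 2 with each mouse left out. The 2 calls without WT 3 were *Fbln1* and *Emilin2*. Over all genes, 22 passed (21 higher), and 404 passed without a filter, 210 with DESeq2, 3 with limma-voom, 6 with non-robust dispersion, 8 with the GC trend removed, 116 with the replicate block, 119 with block and length trend, and 0 to 83 with each mouse left out. For the pathway genes the 2 calls became 16 without a filter, 11 with DESeq2, 0 with limma-voom, 1 with non-robust dispersion, 1 with the GC trend removed, 6 with the replicate block, 6 with block and length trend, and 0 to 4 with each mouse left out. *Mustn1* was below 0 throughout, at −1.09 to −0.88 with each mouse left out, and missed the threshold with limma-voom (−0.99) and non-robust dispersion (−0.96). The cause of these differences was not tested. Same-numbered mice correlated in their deviations over all genes tested by 0.20, −0.01 and −0.03. With 3 mice per genotype these values cannot settle whether the numbers pair the mice, and the labels do not say. The block called *Fbn1*, *Emilin2* and *Mfap4*. No scaling moved the median of all genes by 0.1 on the log2 scale. Without WT 1, the mouse lowest in all 10 genes, none of the 10 passed. This was also so in the main test and on leaving out any other mouse but WT 3. The genes with the lowest count in a single mouse were *Fbln1* and *Emilin2*, with 48 and 75 reads in WT 1, and how far depth limits their values was not tested.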
